A study of Homo sapiens with 4 samples.

Results

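A set of 10 genes of iron uptake, storage and export was examined in human lung adenocarcinoma cells in which the histone methyltransferase G9a had been reduced or increased. They are CYBRD1, STEAP3, TFRC, SLC11A2, FTH1, FTL, NCOA4, SLC40A1, ACO1 and IREB2, and they were chosen by name. Every probe set of the array that is annotated to only 1 gene, with that gene among the 10, was taken. This gave 21 probe sets for 8 of the 10 genes, out of 41039 probe sets for 19741 genes in all. FTH1, the ferritin heavy chain, and IREB2, the second iron regulatory protein, had no probe set under this rule and are not analysed here.

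The 4 samples were stably transduced populations, selected with puromycin for 2 weeks, and each was hybridised on 1 Affymetrix array. CL1-5 is an invasive lung adenocarcinoma subline and was studied with a G9a shRNA and with a control shRNA. CL1-0 is its less invasive parent line and was studied with an HA-tagged G9a vector and with a control vector. The labels name 1 G9a shRNA sequence, listed as shRNA2, so the knockdown rests on 1 hairpin, and no group has a replicate. Within a line, therefore, no p-value is given, and differences have no replicate check.

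Cells take up iron bound to transferrin through the transferrin receptor, reduce it in the endosome and move it into the cytosol through a divalent metal transporter. Iron that is not used is stored in ferritin, released again when ferritin is delivered to the lysosome, or exported through ferroportin. Iron regulatory proteins bind hairpins called iron-responsive elements in the messenger RNAs of some of these genes. When iron is scarce, these proteins stabilise the transferrin receptor message and block translation of the ferritin messages. An array reads messenger RNA and so cannot see the translational part of this control.

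That hairpin is shown here because it is the reason why FTL messenger RNA is not a measure of ferritin protein. A search of the 50 bases after the transcription start found the upper part of the element in FTL, at chr19:48965341-48965357 on the plus strand of GRCh38.p14, which is bases 33 to 49 after the start in the RefSeq window. The 6 loop bases are in capitals, with the unpaired C at the left end and the 5 paired bases on each side in lower case.

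FTL: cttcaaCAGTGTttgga

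The search asked, on the transcribed strand, for the loop CAGTGN between 5 bases on each side that pair with each other, G-T pairs allowed, with a C just before them. Of 35116 such windows of all genes, 8 (0.0228%) held it. Of the 10 genes, 9 matched a RefSeq window, and FTL was the only one of these with a match. No match in the others says only that these letters are not in the 50 bases searched.

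Signals are MAS5 intensities on a linear scale, as deposited. For ratios, signals under 3.35 (the 25th percentile of all values, called the floor) were raised to it before taking log2. A gene or probe set counted as measured in a comparison when its brighter array reached 12.5, the median of all values. The G9a shRNA array was brighter across most genes, with a median log2 ratio of 0.42 over 13045 measured genes, and the HA-G9a array slightly dimmer, with -0.08 over 12791. Ratios below are relative to these medians. As a technical yardstick, the SD of log2 ratios between probe sets of a gene, pooled over genes, was 0.54 for the knockdown and 0.51 for HA-G9a, or 0.30 and 0.25 among probe sets reaching 84.2, the 75th percentile. EHMT2, which encodes G9a, read 28.1 with the G9a shRNA against 376 in its control, and 862 with HA-G9a against 420 with the vector, in its brightest probe set. A dimmer one read 9.98 against 34.2 in the knockdown comparison and 44.2 against 38.0 in the HA-G9a comparison. The remaining one, at 5.32 against 2.10 and at 7.89 against 3.58, was below the filter on all 4 arrays.

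The labels give the type II alveolar cell as the cellular basis of both lines. Of 8 type II markers with a probe set, 5 reached 12.5 with the G9a shRNA and 5 in its control, 3 with HA-G9a and 4 with the vector, and none reached 84.2 on any array. Of 6 epithelial markers, 5 reached 12.5 with the G9a shRNA and 3 in its control, 5 with HA-G9a and 5 with the vector. Their summed signal was 2988 with the G9a shRNA against 3745 in its control, and 2360 with HA-G9a against 684 with the vector, mostly from the keratin KRT18. KRT19 was at or below the floor on all 4 arrays. The other epithelial markers did not move together. CDH1, which encodes E-cadherin, was at 77.6 with the G9a shRNA against 2.36 in its control, and EPCAM at 18.1 against 6.06. KRT8 went the other way, at 325 against 757, and so did KRT18, at 2533 against 2945. With HA-G9a, KRT8 read 186 against 67.1 with the vector, while EPCAM read 12.6 against 24.6. Of 5 macrophage markers, of a cell type that recycles iron, CD163, MRC1 and CD14 were at or below the floor on all 4 arrays. CSF1R read 13.4 with the G9a shRNA against 14.3 in its control, and MARCO, at 3.90, was above the floor only in that control. The part of these markers in the iron gene ratios was not tested.

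CYBRD1 was the iron gene that differed most after the knockdown. It encodes duodenal cytochrome b, a membrane reductase that turns ferric into ferrous iron. Its brighter probe set, 222453_at, read 20.6 with the G9a shRNA against 166 with the control shRNA, and 108 with HA-G9a against 243 with the vector. The other, 217889_s_at, read 1.13 with the G9a shRNA against 88.2 with the control, and 73.4 with HA-G9a against 88.7 with the vector. In both probe sets the G9a shRNA array was the lowest of the 4. In such bulk samples, fewer cells with the message and less message per cell cannot be told apart.

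The relative log2 ratio of 222453_at was -3.42 after the knockdown, 10.7-fold lower, at percentile 0.675 of all measured genes. For 217889_s_at the knockdown signal lay below the floor, so its fold is a bound: at least 35.2-fold lower. Both values are several times the SD between probe sets of a gene. With HA-G9a the probe sets did not give the same picture. The ratio was -1.09 (2.13-fold lower) for 222453_at but -0.19 for 217889_s_at. With the mean over probe sets as every gene's value, and ratios centred anew, the ratio was -0.67 and did not pass 2-fold. Both CYBRD1 comparisons thus read lower in the altered population, whether G9a was reduced or added, with the second resting on 1 of 2 probe sets.

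Markers of endothelial cells also read lower with the G9a shRNA: their summed signal was 91.6 against 384 in the control, over 4 markers, mostly from PECAM1 at 81.5 against 318. CDH5 read 5.24 against 62.3, while VWF (2.30 against 1.97) and TEK (2.54 against 1.86) were at or below the floor on both arrays. Their part in the CYBRD1 difference was not tested.

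RefSeq places 2 transcription starts at CYBRD1, and 3' arrays cannot tell which is used. The 250 bases before the upstream start are shown because CYBRD1 had the largest ratio among the 8 iron genes after the knockdown and CpG sites are where DNA methylation, a mark often found together with H3K9 methylation, can be placed. CpG sites are in capitals. The stretch is chr2:171521983-171522232 on the plus strand of GRCh38.p14.

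CYBRD1 upstream start: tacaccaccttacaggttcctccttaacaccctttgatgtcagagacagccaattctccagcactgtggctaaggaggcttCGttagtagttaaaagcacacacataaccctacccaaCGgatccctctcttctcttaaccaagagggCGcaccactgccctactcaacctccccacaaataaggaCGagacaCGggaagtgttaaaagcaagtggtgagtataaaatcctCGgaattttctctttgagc

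This stretch holds 6 CpG sites, more than 38.1% of all 35116 windows. The 250 bases before the downstream start hold 17, more than 61.0%, where the median window holds 11. The core of the antioxidant response element, TGACNNNGC, searched on both strands of each 300-base window, was in neither CYBRD1 window, and neither was ACGTG, the core of the hypoxia response element. Over all windows these letters occur in 13.3% and 21.4%. These are descriptions of the sequence and were not tied to the ratios. No methylation was measured here.

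**Figure D1:**
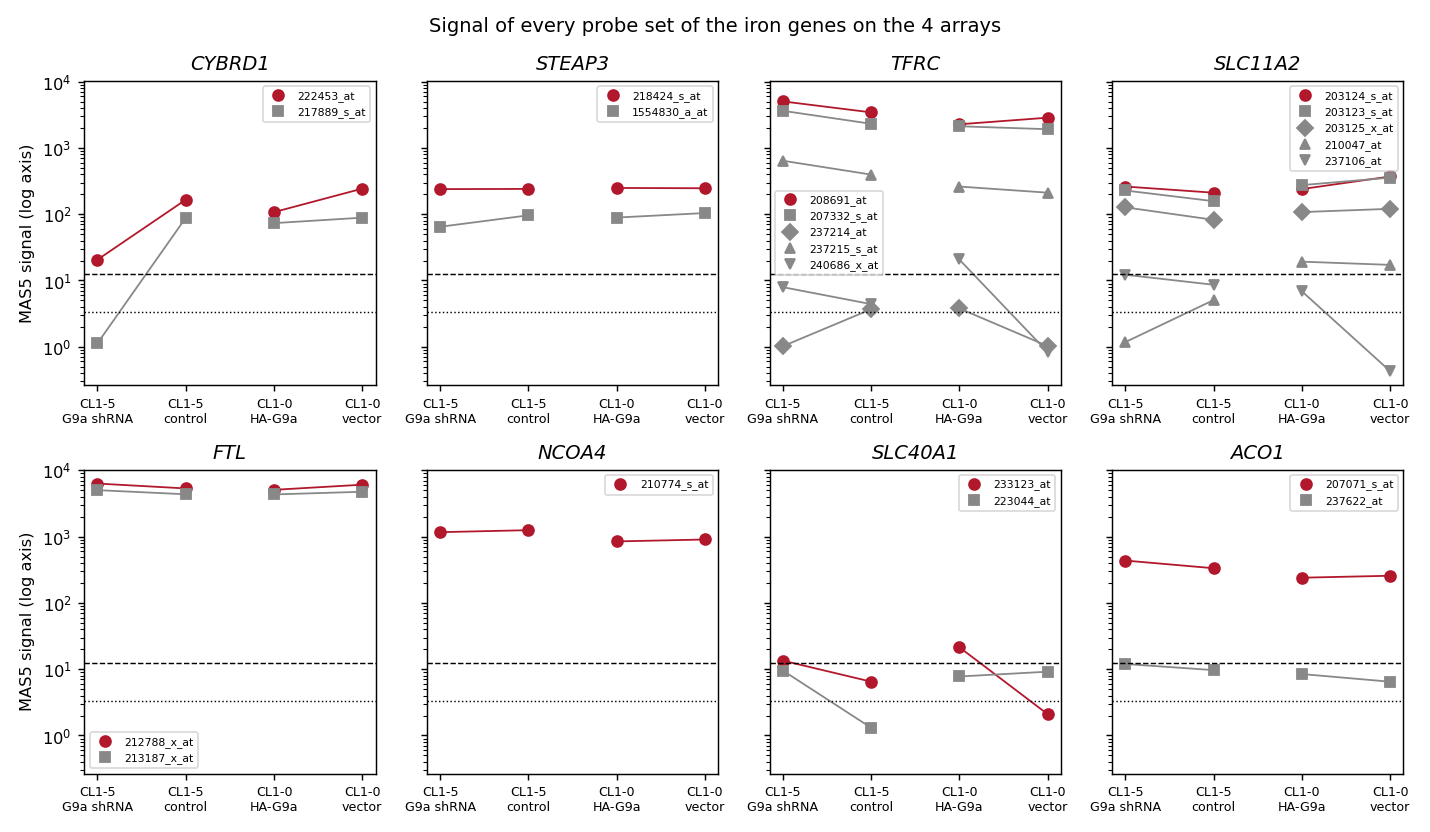
Signal (log axis) of all 21 probe sets of the 8 iron genes on the 4 arrays; red marks the probe set with the highest mean signal, grey the others, lines join the arrays of a line, the dashed line is the filter of 12.5 and the dotted line the floor of 3.35. CYBRD1 drops in the G9a shRNA array in both probe sets, while the brightest probe set of STEAP3 stays between 239 and 249.

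STEAP3 encodes the main reductase of transferrin-bound iron in the endosome of red cell precursors. Its bright probe set, 218424_s_at, read 239 with the G9a shRNA against 241 with the control, and 249 with HA-G9a against 246 with the vector. The 4 arrays were thus nearly level. Because the median gene was brighter with the G9a shRNA, the relative log2 ratio there was -0.43, against 0.10 for HA-G9a. The dimmer probe set, 1554830_a_at, read 64.6 against 96.2 in the knockdown comparison, a ratio of -0.99 just inside 2-fold, and 89.0 against 104 in the HA-G9a comparison, a ratio of -0.14. The 2 probe sets differed after the knockdown by about the SD between probe sets.

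TFRC encodes transferrin receptor 1, the main entry route of iron in most cells. Probe set 208691_at read 5039 with the G9a shRNA against 3442 with the control, and 2274 with HA-G9a against 2859 with the vector. Probe set 207332_s_at read 3635 against 2315 in the knockdown comparison, and 2123 against 1917 in the HA-G9a comparison. Probe set 237215_s_at read 641 against 396 in the knockdown comparison and 262 against 211 in the HA-G9a comparison. All 3 read highest in the G9a shRNA array, but not by much more than the median gene: their relative log2 ratios were 0.13, 0.23 and 0.27. With HA-G9a the ratios were -0.25, 0.23 and 0.39, so the probe sets did not share a sign. A further probe set, 240686_x_at, was at 20.8 in HA-G9a cells against 0.84 with the vector, where the vector signal lay below the floor and the HA-G9a signal was dim. The last, 237214_at, stayed below the filter on all arrays.

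SLC11A2 encodes DMT1, the proton-coupled transporter of ferrous iron. Its probe set 203124_s_at read 262 with the G9a shRNA against 211 with the control, and 240 with HA-G9a against 371 with the vector. Probe set 203123_s_at read 228 against 157 in the knockdown comparison and 275 against 356 in the HA-G9a comparison. Probe set 203125_x_at read 127 against 82.3 in the knockdown comparison and 108 against 121 in the HA-G9a comparison. After the knockdown the 3 relative log2 ratios were -0.11, 0.12 and 0.21, around the median gene. With HA-G9a they were -0.55, -0.29 and -0.08, all lower, the largest close to the spread of 0.51 between probe sets and beyond the 0.25 of brighter ones. Probe set 210047_at, at 19.2 against 17.2 in the HA-G9a comparison, had a ratio of 0.24 there, and 237106_at never reached the filter.

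FTL encodes the ferritin light chain, which helps to form the mineral core of the storage shell. Probe set 212788_x_at read 6321 with the G9a shRNA against 5335 with the control, and 5084 with HA-G9a against 6072 with the vector. Probe set 213187_x_at read 5031 against 4356 in the knockdown comparison, and 4332 against 4752 in the HA-G9a comparison. In both probe sets the 4 arrays lay close together, and the relative log2 ratios were -0.18 and -0.21 after the knockdown and -0.17 and -0.05 with HA-G9a. Both probe sets are of the _x_at type, which can hybridise to related sequences, and ferritin genes have many processed pseudogenes.

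NCOA4 encodes the cargo receptor that carries ferritin to autophagosomes, on the way to the lysosome, where its iron is released. Its single probe set read 1168 with the G9a shRNA against 1252 with the control, and 847 with HA-G9a against 905 with the vector. The relative log2 ratios were -0.52 and -0.01. As deposited, both log2 ratios were -0.10.

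SLC40A1 encodes ferroportin, the iron exporter. Both of its probe sets were dim. Probe set 233123_at read 13.5 with the G9a shRNA against 6.49 with the control, and HA-G9a cells read 21.5 against 2.10 with the vector. Probe set 223044_at read 9.56 against 1.31 in the knockdown comparison and 7.76 against 9.17 in the HA-G9a comparison, below the filter on all arrays. The relative log2 ratio of 233123_at was 0.63 after the knockdown and 2.76 with HA-G9a, where the vector signal lay below the floor and the fold is a bound of at least 6.78. SLC40A1 passed the filter in each comparison only through its brighter array, and the other probe set read lower, not higher, with HA-G9a.

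ACO1 encodes cytosolic aconitase, which becomes iron regulatory protein 1 when it loses its iron-sulfur cluster. Probe set 207071_s_at read 435 with the G9a shRNA against 334 with the control, and 240 with HA-G9a against 257 with the vector. Its relative log2 ratios were -0.04 and -0.02, at the median gene in both comparisons. The other probe set, 237622_at, was below the filter on all arrays.

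**Figure D2:**
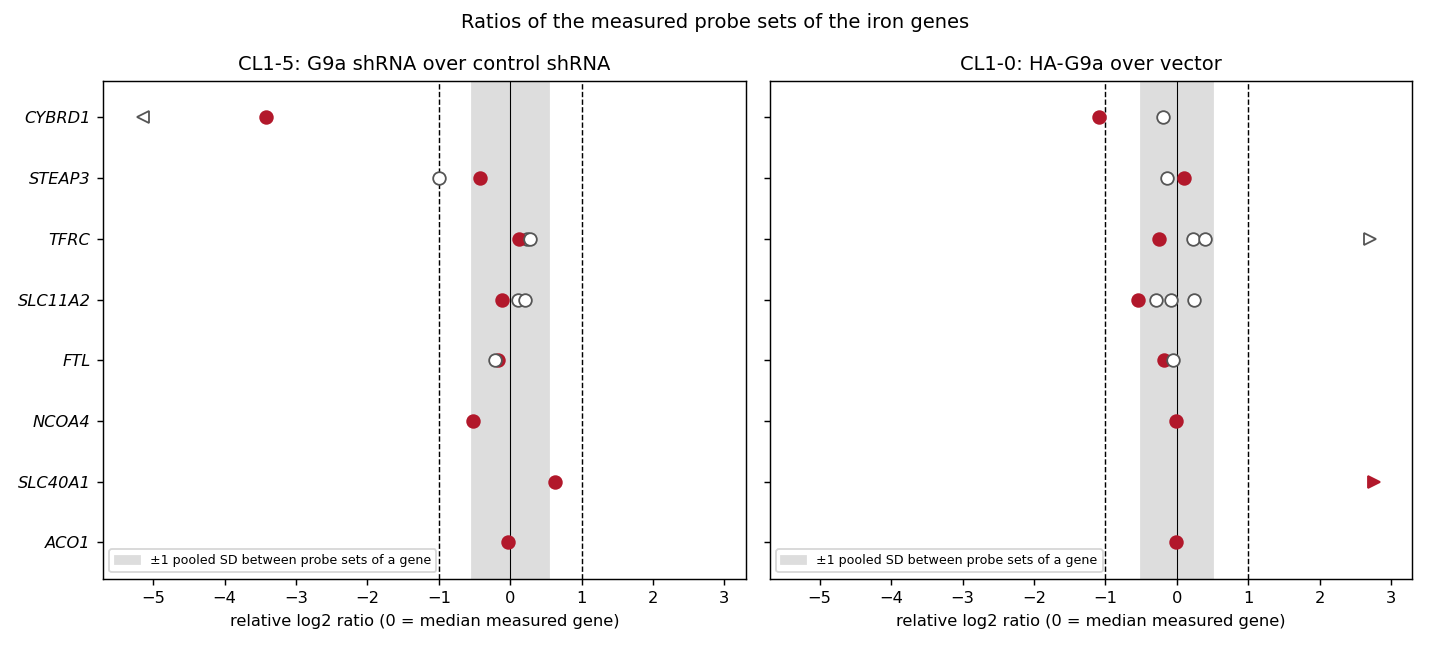
Relative log2 ratio of each measured probe set of the 8 iron genes, G9a shRNA over control shRNA (left) and HA-G9a over vector (right). Red points are the probe set used as the gene's value, open points the others, triangles mark ratios that are bounds because 1 array lay at or below the floor, the grey band is ±1 pooled SD between probe sets of a gene (0.54 and 0.51), and dashed lines mark 2-fold; CYBRD1 lies far below the band on the left.

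Counted by gene, 1 of 8 measured iron genes (CYBRD1) was at least 2-fold lower after the knockdown, where 7.76% of all 13045 measured genes were, and 0 were at least 2-fold higher, against 8.13%. The median of the 8 was -0.14, and the other 7 lay between -0.52 and 0.63. With HA-G9a, 1 of 8 (CYBRD1) was at least 2-fold lower, against 3.74% of 12791 genes, and 1 (SLC40A1) at least 2-fold higher, against 5.46%. The median was -0.09. Counts of 1 in 8 do not set the group apart from all genes. Among genes reaching 84.2 on the brighter array, 5.17% of 8458 were at least 2-fold lower after the knockdown and 0.814% of 7743 with HA-G9a, and CYBRD1 was in both sets.

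**Figure D3:**
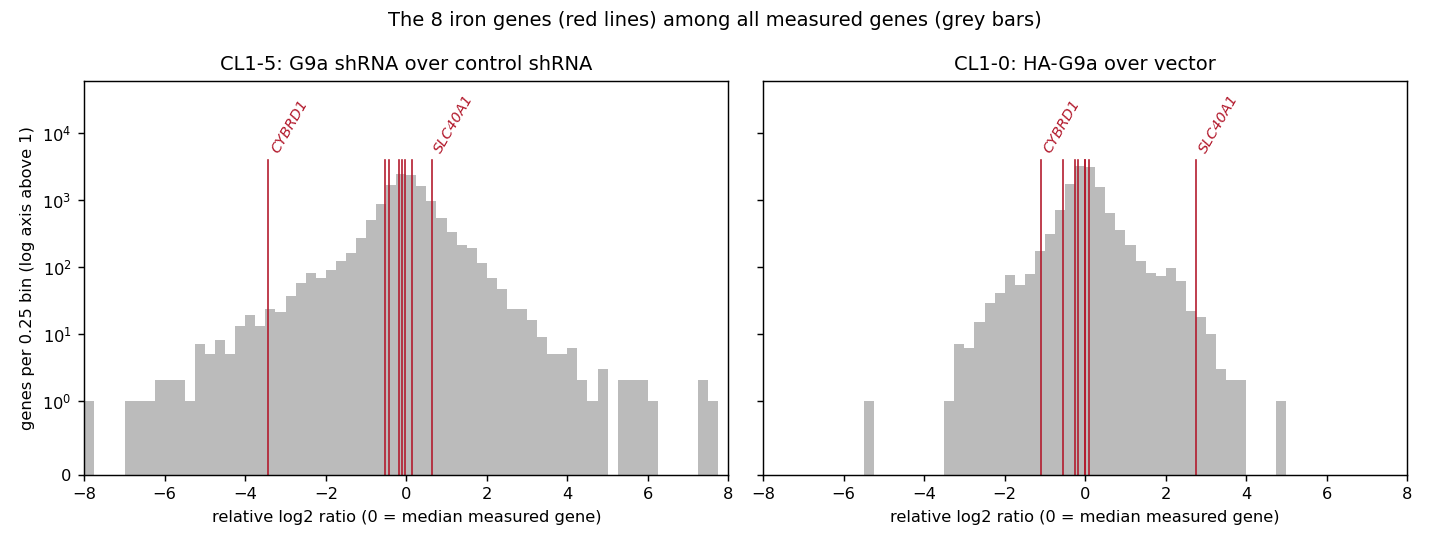
Number of measured genes per bin of relative log2 ratio (grey bars, log axis above 1) with the 8 iron genes as red lines, for the knockdown (left, 13045 genes) and HA-G9a (right, 12791 genes). CYBRD1 lies in the lower tail on the left at -3.42 and SLC40A1 in the upper tail on the right at 2.76, and CYBRD1 lies at -1.09 on the right.

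The genes whose signals ran most like those of CYBRD1 were found by the Euclidean distance between log2 values, each gene centred on its own mean over the 4 arrays, among 8884 genes that reached 84.2 on at least 1 array. The 5 nearest were MYLK (distance 0.46), KLF7 (0.70), SLC2A6 (0.79), RGCC (0.85) and PNMA2 (0.86). MYLK, which encodes myosin light chain kinase, read 13.7 with the G9a shRNA against 122 with the control, and 110 with HA-G9a against 204 with the vector. KLF7, a zinc finger transcription factor gene, read 10.1 against 99.5 in the knockdown comparison and 54.9 against 76.0 in the HA-G9a comparison. The relative log2 ratios of the 5 ran from -3.79 (RGCC) to -3.00 (SLC2A6) after the knockdown. With HA-G9a they ran from -0.81 (MYLK) to 0.05 (PNMA2), none past 2-fold, so what the 5 share with CYBRD1 is mainly the lower knockdown signal.

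Between the lines, the 2 CL1-5 arrays were set against the 2 CL1-0 arrays with limma on log2 values centred on the median gene of each array. The 2 arrays of a line differ in G9a, so that effect is part of the spread against which the lines are judged, and p-values measure only that spread. Both CL1-5 populations carry an shRNA and both CL1-0 populations HA-G9a or a control vector, so line and type of construct cannot be told apart. None of the 8 iron genes passed an adjusted p of 0.05, and 0 had an unadjusted p below 0.05. Of all 12617 genes tested, 1.97% passed as higher and 3.23% as lower in CL1-5, and 26.3% had an unadjusted p below 0.05.

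The iron gene nearest to the threshold was SLC11A2, with a log2 difference, CL1-5 minus CL1-0, of -0.67 (SE 0.27, limma adjusted p = 0.215). As deposited, the CL1-5 signals of its brightest probe set, 262 and 211, overlapped with the HA-G9a signal of 240. They lay below the vector signal of 371. After centring on the median gene of each array, as in the fit, both CL1-5 values lay below both CL1-0 values. CYBRD1 had the largest difference, -1.80, but also the largest SE, 1.22 (limma adjusted p = 0.411). Between the control arrays alone it was -0.64, and without the G9a shRNA array the fit gave -0.10, so that array decides its size. TFRC had a difference of 0.38 (SE 0.22, limma adjusted p = 0.350), STEAP3 of -0.37, ACO1 of 0.29, FTL of -0.27, SLC40A1 of -0.19 and NCOA4 of 0.14. The signs of SLC40A1, FTL and NCOA4 turned under other settings: SLC40A1 ran from -1.58 without the vector array to 1.20 without the HA-G9a array, NCOA4 was at -0.11 without the control shRNA array, and FTL was at 0.06 as deposited. Leaving out an array moved STEAP3 to between -0.58 and -0.17 and SLC11A2 to between -0.94 and -0.41. With 2 arrays a line the fit has 2 residual degrees of freedom, and a p above the threshold does not show that the lines have equal levels.

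Other genes of iron, heme and ferroptosis were grouped in 7 lists. They were described by the same count of genes past 2-fold, beside the shares of all genes given above.

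Of 10 measured genes of transferrin, reductases and other iron import, 2 were at least 2-fold higher after the knockdown and 0 lower, with a median of 0.13. TFR2, the iron-sensing second transferrin receptor, read 23.1 against 1.33, a relative log2 ratio of 2.36 that is a bound because the control lay below the floor. Its 3 measured probe sets were all higher. TF, transferrin itself, read 20.9 against 6.89 (ratio 1.18) and was dim. STEAP1, a relative of STEAP3, read 137 against 202 (-0.98), just inside 2-fold. With HA-G9a the count was again 2 higher and 0 lower of 10 (median 0.03). SLC39A8, the metal transporter ZIP8, read 558 against 193, a ratio of 1.62, and both measured probe sets passed 2-fold. LCN2, a siderophore-binding lipocalin, was dim at 16.6 against 6.64.

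Among genes of efflux, ferroxidases and the hepcidin axis, 1 of 9 was higher and 2 lower after the knockdown (median 0.28). This balance turned as deposited, with 4 higher and 1 lower, and the mean over probe sets left 0 past 2-fold. BMP6, the ligand that drives hepcidin in liver, read 15.4 against 55.8, a ratio of -2.28. CP, the ferroxidase ceruloplasmin, read 19.1 against 0.82, a ratio of 2.09 that is a bound. TMPRSS6, a protease that restrains hepcidin signalling, read 10.2 against 18.4 (-1.27). HAMP, which encodes hepcidin, was dim, at 17.8 with the G9a shRNA against 8.24 in the control and at 14.3 with HA-G9a against 12.9 with the vector. With HA-G9a 0 of 7 passed 2-fold (median 0.16).

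Iron chaperones, ferritin turnover and control of the iron regulatory proteins had 0 of 14 higher and 1 lower after the knockdown (median -0.09), and 2 higher and 0 lower with HA-G9a (median 0.10). EPAS1, which encodes the hypoxia factor HIF-2 alpha and whose message carries an iron-responsive element of its own, was past 2-fold in both comparisons relative to the median gene. It read 719 with the G9a shRNA against 1354 with the control, a ratio of -1.33 (-0.91 as deposited, inside 2-fold), and 242 with HA-G9a against 66.5 with the vector, a ratio of 1.94. Both measured EPAS1 probe sets passed 2-fold in each comparison, so in each line the signal was higher where EHMT2 was higher. FBXL5, the ubiquitin ligase subunit that removes iron regulatory proteins in iron-replete cells, read 676 against 319 after the knockdown (0.66), inside 2-fold. PROM2, which takes part in ferritin release, was at 61.2 in HA-G9a cells against 27.0 with the vector (1.26), but 2 of its 3 measured probe sets had the other sign.

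Genes of iron-sulfur cluster assembly stood near the median gene. None of 16 mitochondrial genes passed 2-fold in either comparison, with medians of 0.04 after the knockdown and -0.03 with HA-G9a. None of 13 cytosolic assembly genes and iron-sulfur enzymes did so either, with medians of 0.09 and 0.16. These counts of 0 hold for the brightest probe set of each gene at the main scaling. With arrays scaled to one median, 1 mitochondrial gene was lower with HA-G9a. After the knockdown, 1 of the 13 was lower by the mean over probe sets, and 1 was higher and 1 lower without _s_at and _x_at probe sets. NDOR1, a reductase of the cytosolic pathway, had 3 measured probe sets, with ratios between -1.32 and 1.30. ISCU, the scaffold protein gene, read 1500 with the G9a shRNA against 791 with the control (0.50), and ISCA1 was at 458 in HA-G9a cells against 886 with the vector (-0.87). The 3 measured ISCA1 probe sets had HA-G9a ratios between -0.87 and -0.02.

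Heme genes had 1 of 19 higher and 0 lower after the knockdown (median 0.11), and 0 of 18 past 2-fold with HA-G9a (median -0.18). The higher gene was HPX, the heme scavenger hemopexin, at 40.0 against 11.2 (1.42). FECH, ferrochelatase, which inserts iron into heme, read 432 against 175 (0.88), and SLC48A1, a lysosomal heme transporter gene, read 347 against 152 (0.77). Each had 3 measured probe sets, with ratios between 0.07 and 1.10 for FECH and between 0.70 and 1.40 for SLC48A1. HMOX1, heme oxygenase 1, which frees iron from heme, was at 2228 in HA-G9a cells against 1629 with the vector (0.53), and its ratio after the knockdown was 0.12.

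Ferroptosis is an iron-dependent death through lipid peroxidation. Of 12 measured genes, 2 were higher and 2 lower after the knockdown (median 0.06), and 1 higher and 1 lower with HA-G9a (median 0.03). SLC7A11, the cystine transporter that feeds glutathione synthesis, read 1929 with the G9a shRNA against 237 with the control, a ratio of 2.60 shared in sign and past 2-fold by its 3 probe sets. SAT1, a polyamine-acetylating enzyme, read 1942 against 439 (1.72), again with 3 of 3 probe sets past 2-fold. ACSL4, which loads membranes with polyunsaturated fatty acids, read 38.2 against 74.4 (-1.38) after the knockdown and 78.9 with HA-G9a against 35.3 with the vector (1.24). CHAC1, which degrades glutathione, read 15.1 against 37.5 (-1.73) after the knockdown and 38.4 with HA-G9a against 220 with the vector (-2.43). GPX4, the lipid peroxide reductase, had ratios of 0.00 and -0.26.

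**Figure D4:**
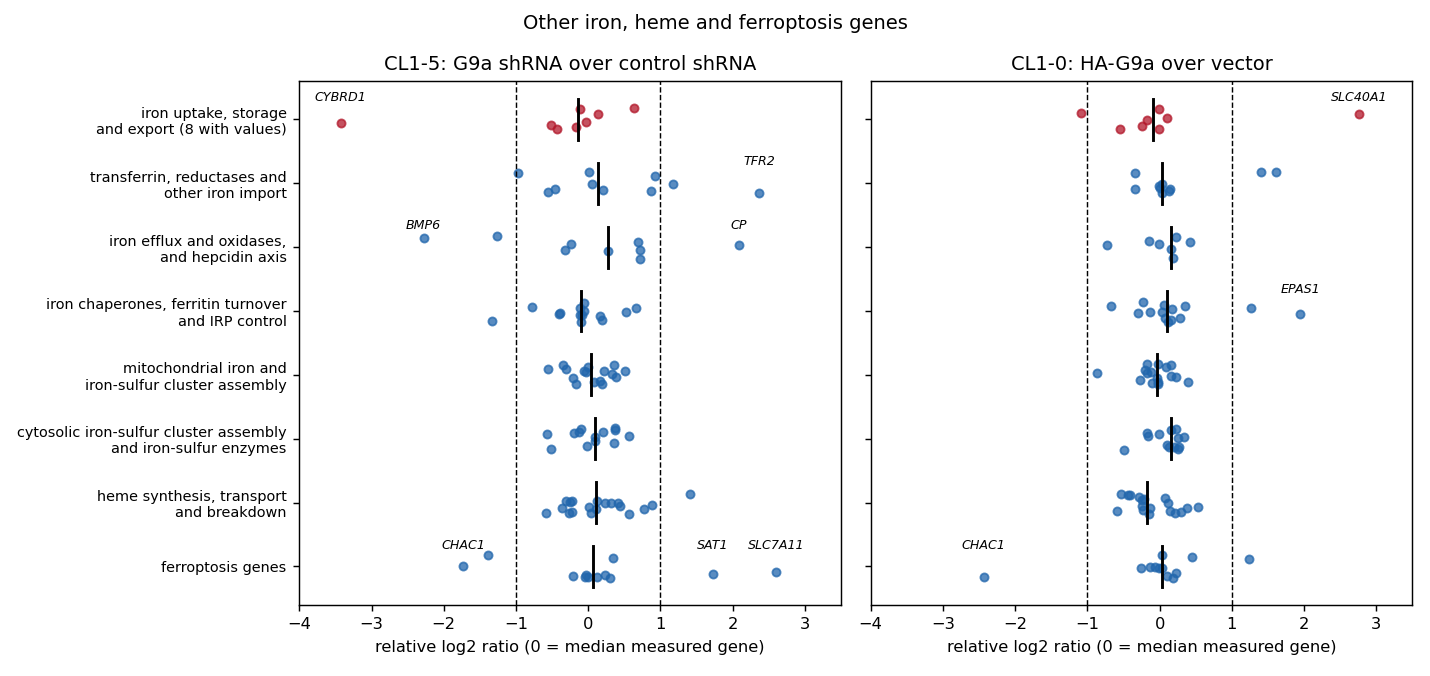
Relative log2 ratios of the measured genes of each list, 1 point per gene, with the list median as a black bar and 2-fold as dashed lines, for the knockdown (left) and HA-G9a (right). The iron-sulfur lists, shown by each gene's brightest probe set, stay within 2-fold on both sides, and SLC7A11 (2.60), SAT1 (1.72) and EPAS1 (1.94, right) stand outside it.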

How the data were processed

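RNA of 4 cell populations was hybridised on 1 Affymetrix array each, from 6 ug of total RNA per the labels' protocols. The deposited values are linear intensities, 1 per probe set, made with MAS5 per the submitters' processing notes; its version, scaling and present calls were not stated in any source used. All 54675 values per array were above 0, and medians were 14.9 (G9a shRNA), 11.3 (control shRNA), 12.3 (HA-G9a) and 11.7 (vector). Depth has no counterpart on arrays, and the number of arrays limits the precision.

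Probe sets were named through the platform annotation, with symbols updated by Entrez identifier against RefSeq GRCh38.p14: 41097 had 1 symbol (41043 matched by identifier), 1801 had several, and the annotation lists no gene for 11777, left unnamed. Probe sets of Y-linked genes and of 1 X-linked transcript were left out. A gene's value was that of the probe set brightest on average. Ratios used the floor, filter and median centring given above, with 2-fold as a descriptive threshold. The line comparison used limma 3.58.1 (R 4.3.3), lmFit and eBayes, on genes with at least 2 arrays at or above 12.5. Benjamini-Hochberg adjustment ran over all 12617 genes. With 2 residual degrees of freedom, this fit can miss true differences of the sizes given for the iron genes. Other steps used Python 3.11.15, pandas 2.3.3 and NumPy 2.4.6.

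The 8 iron genes with a probe set, all their probe sets and EHMT2 are reported. Of each other list, up to 4 measured genes with the largest absolute ratio per comparison could be named. HAMP is given in both comparisons, HMOX1 and GPX4 in the knockdown as well, beyond that rule, after their values were seen. Cell type markers are named as checks. The iron genes and the lists were chosen with earlier results of these data known. Alternatives changed the scaling, the filter, the floor, the probe set rule and, between the lines, the arrays.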

Additional observations from a re-analysis of the deposited data

Results flagged for a closer look

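CYBRD1 was marked because the array with more G9a was higher in CL1-5 and lower in CL1-0: its relative log2 ratio was -3.42 for the G9a shRNA over its control and -1.09 for HA-G9a over the vector. CHAC1 was marked for the same reason, with -1.73 and -2.43. The difference between the lines was not tested, as each group had 1 array, and the second CYBRD1 probe set had a ratio of -0.19 with HA-G9a.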

How the results depend on the processing

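CYBRD1 was at least 2-fold lower after the knockdown under all 8 alternatives. For the iron genes, as-deposited ratios added 1 gene at least 2-fold higher after the knockdown (SLC40A1), and leaving out _s_at and _x_at probe sets gave 2 lower, CYBRD1 and STEAP3 (-1.02). With HA-G9a, the mean over probe sets gave 0 lower, and the filter at the 75th percentile gave 0 higher, since SLC40A1 did not reach it. That mean also turned the HA-G9a ratio of TFRC from -0.25 to 0.65 and of SLC11A2 from -0.55 to 0.06, all inside 2-fold. Without _s_at and _x_at probe sets the SLC11A2 ratio was 0.25. Of the 7 lists after the knockdown, as-deposited ratios gave 4 higher genes of import, 3 of heme and 1 of chaperones and ferritin turnover, where EPAS1 was no longer lower. The filter at the 75th percentile left 0 of import, efflux and heme past 2-fold. Of the ferroptosis genes, 2 were higher under both settings, while 1 was lower as deposited and 0 with that filter. Over all genes after the knockdown, 1060 were higher and 1012 lower. These counts were 2198 and 618 as deposited, 410 and 437 with the filter at the 75th percentile, and 1675 and 1569 with no filter. With HA-G9a, 699 were higher and 479 lower, against 553 and 705 with arrays scaled to one median, 652 and 642 after quantile normalization and 611 and 569 as deposited. The filter at the 75th percentile gave 124 and 63, no filter gave 1225 and 1095, and the mean over probe sets gave 437 higher.

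Between the lines, 249 genes were higher and 408 lower in CL1-5. As deposited 392 were higher, with no filter 128 were higher and 179 lower, and with the filter at the 75th percentile 401 were higher. Leaving out 1 array gave 0 to 253 higher and 0 to 534 lower: both counts were 0 without the vector array and 45 without the HA-G9a array. None of the 8 iron genes passed the threshold under any alternative in which it was tested, SLC40A1 being tested in fewer of them; the limma adjusted p of CYBRD1 ran from 0.0599 to 0.927. No paired analysis was possible because each group has 1 array and the labels give no replicate numbers. No depth limit applies to arrays; dim signals near the floor, such as those of SLC40A1, limit the ratios.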
